A study of Mus musculus with 8 samples.

Results

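The genes described here are 33 genes of the white adipocyte: genes that coat or form its lipid droplet, make triglyceride, break it down, take up and bind fatty acids, are secreted from the cell, or control its transcription and signalling. They were chosen by name and found on the array through the transcript identifier of each probe. All 33 were among the 21368 named genes on the array, and the probe with the highest mean signal stood for a gene with several. The tissue was thoracic aorta of mice labelled male, on a mixed C57BL6J/NMRI background, kept in conventional cages with free access to food. The 2 groups were 4 samples of genotype Fto -/- and 4 samples of genotype Fto +/+, both untreated as far as the labels say, and the study asked how loss of Fto, an enzyme that removes methyl groups from RNA, bears on gene expression in the vessel. The labels give neither the age of the mice, the design of the deleted allele, nor whether fat around the vessel was removed. They do not say that each sample is a separate animal, so every p-value here measures only the spread between these samples.

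White adipocytes store energy as triglyceride in a single large droplet. Fatty acids released from lipoproteins at the vessel wall are taken up, joined to a glycerol backbone and packed into the droplet, whose surface is covered by perilipins that hold back the lipases until the cell is stimulated. The aorta lies in perivascular fat, which in mice along the thoracic aorta has many features of brown fat, so adipocyte transcripts in aortic RNA are known to depend on how much of that fat is taken along.

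Each RNA sample was hybridised to its own one-colour array. The 75th percentile of intensity ran from 294.9 to 415.6 over the 8 arrays, and 44.48% to 47.74% of probes were well above background. Across the probes well above background on all 8 arrays, log2 levels of any pair of arrays correlated at 0.977 to 0.993. The number of arrays limits the precision. A level below is the log2 intensity minus the log2 of that array's 75th percentile, and a difference is the Fto -/- mean minus the Fto +/+ mean. Fto itself averaged -2.51 ± 0.24 in the Fto -/- samples and 0.57 ± 0.21 in the Fto +/+ samples (SD, n = 4 each), 8.47-fold lower with no overlap (exact permutation test, two-sided, p = 0.0286, the smallest that 4 against 4 allows). This matches the titles and the genotype field, whereas the free-text descriptions have the genotypes exchanged. The samples are labelled male, yet both probes of Xist, the RNA that coats the silent X chromosome, gave clear signal on each of the 8 arrays, and of 6 probes for 5 Y-linked genes 1 was above background, on 1 array. These signals do not match the label. The 8 arrays lay in 2 rows of 1 slide. In row 1 were the first 3 Fto -/- replicates with 1 Fto +/+ replicate (the first), and the rest were in row 2. Rag1, a gene of developing thymocytes, was well above background on 4 arrays, those of Fto -/- replicates 1, 3 and 4 and Fto +/+ replicate 2.

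Most of these adipocyte genes were detected in both genotypes and had the higher mean in Fto -/-, but no member passed the test. Of the 33 genes, 32 were well above background on at least 4 arrays and were tested, 30 of them on all 8. Lep, which encodes the satiety hormone leptin, stayed near background on every array, well above it on 0. In limma's moderated test, with p-values adjusted by Benjamini and Hochberg's method across the 25292 tested probes, 0 of 32 members had an adjusted p under 0.05, against 1.66% of all tested probes, 0.842% higher and 0.814% lower in Fto -/-. At an unadjusted p under 0.05 there were 8, all with the higher mean in Fto -/-, which is 25% of the members against 19.0% of all tested probes in either direction, 8.72% higher and 10.3% lower. The mean was higher in Fto -/- for 29 of 32 members, against 47.5% of all tested probes. The median difference was 0.59, against -0.02 over all tested probes, and 17 members differed by 0.5 or more, against 7.96%. The genotypes did not overlap for 5 members, Gpd1, Dgat2, Agpat2, Plin2 and G0s2, against 4.75% of all tested probes in that direction and 7.36% in the other.

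The members' mean level differed by more between single samples of a genotype than between the genotype means. Averaged over the 32 tested members after centring each gene, the level was -0.12, -0.07, 0.85 and 0.51 in Fto -/- replicates 1 to 4 and -0.58, -0.80, 0.34 and -0.13 in Fto +/+ replicates 1 to 4. The third Fto -/- sample was the highest of all 8 arrays for 24 of 32 members, and the second Fto +/+ sample was the lowest for 16. The third Fto +/+ sample was above both of the first and second Fto -/- samples for 21 members. The SD within a genotype had a median of 0.58 over the members, against 0.21 over all tested probes. Without Fto -/- replicate 3 the mean was higher in Fto -/- for 24 of 32 members and the median difference was 0.375. Without Fto +/+ replicate 2 the median was 0.34. Without the 4 arrays that showed Rag1, which leaves 1 Fto -/- sample against 3 Fto +/+ samples, 16 of 32 members were higher in Fto -/- and the median was -0.0084. There the differences were 1.15 for Gpd1, 0.83 for Dgat2, 0.43 for Agpat2, 0.41 for Plin2 and 0.57 for G0s2, each smaller than over all 8 arrays, with a sign that the absence of overlap fixes. With limma's array weights, which give arrays that fit the others poorly less influence, the 5 members without overlap passed the adjusted threshold, in a fit that called 960 probes higher and 1093 lower over the whole array.

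**Figure D1:**
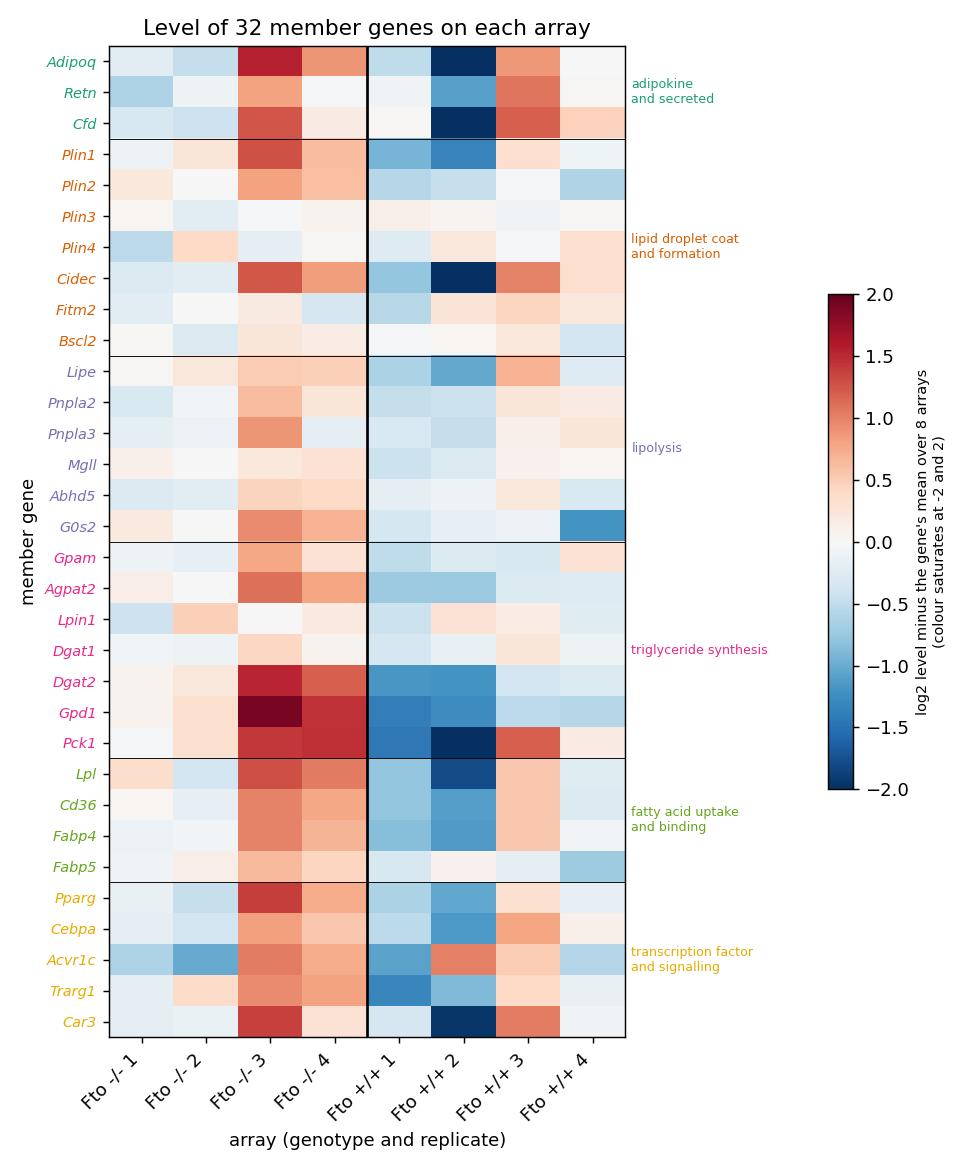
Level of each of the 32 tested members on each of the 8 arrays, relative to the gene's mean over the arrays (log2, colour scale), with Fto -/- samples on the left and Fto +/+ samples on the right and genes ordered by role. Fto -/- replicate 3 was the highest array for 24 of the 32 tested members, and Fto +/+ replicate 2 the lowest for 16.

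**Figure D2:**
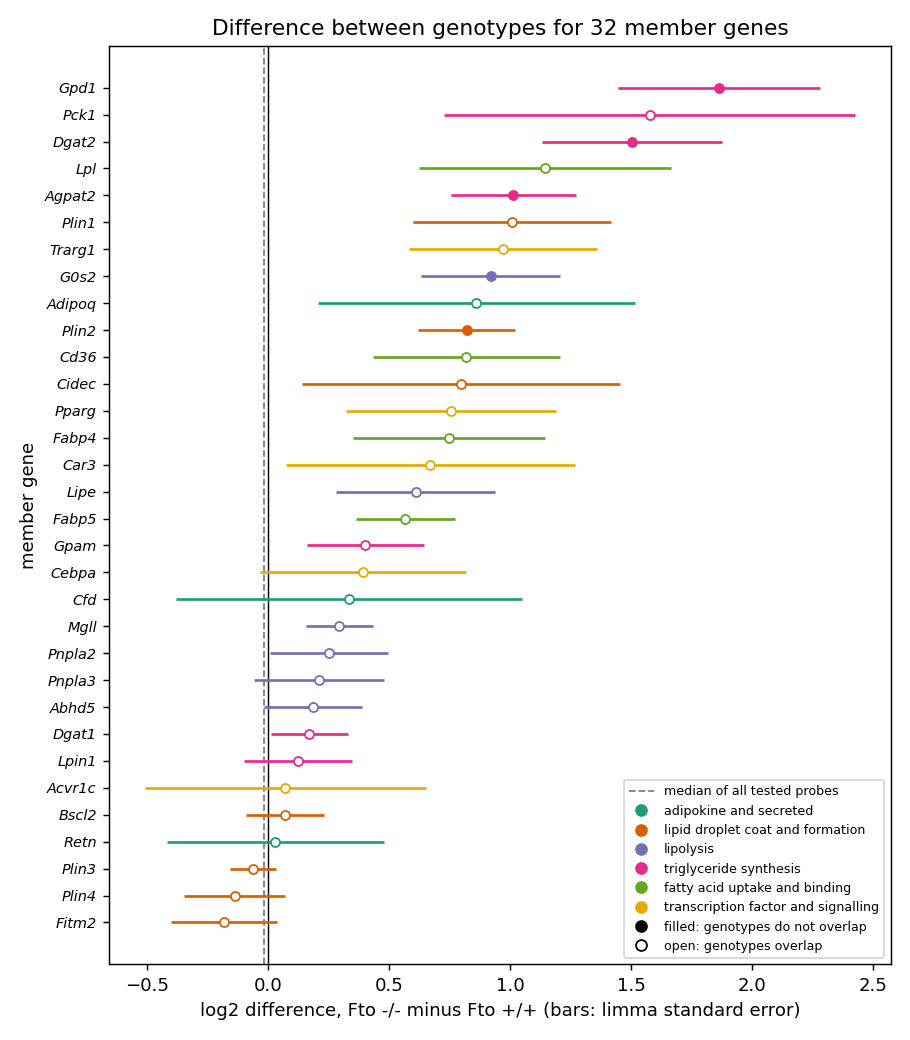
Fto -/- minus Fto +/+ difference of each tested member on the log2 scale with its standard error from limma, filled where the 4 samples of one genotype did not overlap the 4 of the other. Points lie above 0 for 29 of 32 members, and the 5 filled points are Gpd1, Dgat2, Agpat2, Plin2 and G0s2.

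Start regions are shown for the members with an unadjusted p under 0.05 that have an entry in the RefSeq promoter table, since these are the genes whose means stood furthest apart relative to their spread. Each runs from 250 bases before to 50 bases after the start of transcription, read 5′ to 3′ in the direction of the gene from RefSeq, build GRCm38.p6. All 4 genes are on the minus strand, at chr4:86670010-86670309 for Plin2, chr7:79732727-79733026 for Plin1, chr1:193273139-193273438 for G0s2 and chr2:26604368-26604667 for Agpat2. The array design was annotated on mm9, so these coordinates are not those of the probes. Capitals mark a match, on either strand, to AGGTCA, the hexamer bound by many nuclear receptors, or to CACGTG, the E-box, which reads the same on both strands.
Plin2: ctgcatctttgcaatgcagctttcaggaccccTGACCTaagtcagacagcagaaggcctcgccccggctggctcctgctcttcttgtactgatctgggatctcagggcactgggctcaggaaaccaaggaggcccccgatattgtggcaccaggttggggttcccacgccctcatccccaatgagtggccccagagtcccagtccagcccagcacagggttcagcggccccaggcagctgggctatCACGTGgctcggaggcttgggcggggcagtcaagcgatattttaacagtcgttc
Plin1: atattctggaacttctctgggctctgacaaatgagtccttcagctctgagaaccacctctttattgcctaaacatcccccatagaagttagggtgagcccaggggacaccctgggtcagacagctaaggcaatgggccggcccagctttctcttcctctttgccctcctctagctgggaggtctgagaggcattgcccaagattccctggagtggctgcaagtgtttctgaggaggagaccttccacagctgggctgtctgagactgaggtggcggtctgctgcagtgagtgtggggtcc
G0s2: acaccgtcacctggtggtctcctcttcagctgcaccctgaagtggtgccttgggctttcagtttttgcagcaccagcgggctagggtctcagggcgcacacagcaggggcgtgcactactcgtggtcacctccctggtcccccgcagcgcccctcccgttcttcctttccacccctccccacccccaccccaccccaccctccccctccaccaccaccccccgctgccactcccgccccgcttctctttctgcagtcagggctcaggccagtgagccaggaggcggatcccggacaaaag
Agpat2: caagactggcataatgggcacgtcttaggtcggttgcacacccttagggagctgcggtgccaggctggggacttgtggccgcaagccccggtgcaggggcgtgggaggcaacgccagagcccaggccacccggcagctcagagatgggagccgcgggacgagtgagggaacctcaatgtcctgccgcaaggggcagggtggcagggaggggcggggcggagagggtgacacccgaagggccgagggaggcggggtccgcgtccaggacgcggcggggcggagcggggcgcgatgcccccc
In the Plin2 window the hexamer lies on the opposite strand and begins 218 bases before the start, and the E-box begins 4 bases before it. The other three windows hold neither motif. The table held 25 of the 33 members. Dgat2, Gpd1, Trarg1, Car3, Fabp4, Dgat1, Fabp5 and Lpl have no entry in it. The hexamer was present in 16.26% of the table's 32851 promoters and in 8 of the 34 promoters of the members, which belong to 7 of the 25 genes, Abhd5, Bscl2, Cd36, Gpam, Lpin1, Plin2 and Pparg. The E-box was present in 7.15% of all promoters and in 3 of the 34, those of Lipe, Mgll and Plin2. The element of the adipocyte receptor PPARgamma with its partner RXR, searched as AGGTCANAGGTCA, was found in 13 of all promoters and in 0 of the members. GC content was 60.67% for Plin2, 55.67% for Plin1, 66.67% for G0s2 and 72% for Agpat2, against a median of 52.67% over all promoters. A match to these letters is a description of the window only.

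Triglyceride synthesis held the members with the widest separation. Its 7 genes all had the higher mean in Fto -/-, against 47.5% of all tested probes, with a median difference of 1.01. Of the 7, 3 did not overlap between genotypes, against 4.75% of all tested probes in that direction. They were Gpd1, Dgat2 and Agpat2. Gpd1 encodes the cytosolic glycerol-3-phosphate dehydrogenase, which supplies the glycerol backbone. Gpd1 was at 4.87, 5.13, 6.70 and 6.25 in Fto -/- replicates 1 to 4 and at 3.43, 3.54, 4.28 and 4.23 in Fto +/+ replicates 1 to 4, the order used for every gene below. Every Fto -/- sample lay above every Fto +/+ sample, and Fto -/- replicates 3 and 4 were the highest. The means were 5.74 ± 0.88 and 3.87 ± 0.45 (SD, n = 4 each), a difference of 1.87 ± 0.42 (SE) or 3.64-fold (limma, adjusted p = 0.0698).

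Dgat2, which adds the last fatty acid to diacylglycerol, was at 4.19, 4.34, 5.65 and 5.31 in Fto -/- and at 2.95, 2.93, 3.74 and 3.85 in Fto +/+. The genotypes did not overlap, and in both of them replicates 3 and 4 lay above replicates 1 and 2. Its difference was 1.50 ± 0.37, or 2.84-fold (limma, adjusted p = 0.0865). Agpat2, the acyltransferase that makes phosphatidic acid and is lost in a form of congenital lipodystrophy, was at 4.96, 4.83, 5.93 and 5.62 against 4.10, 4.08, 4.53 and 4.58. All Fto -/- samples again lay above all Fto +/+ samples, with a difference of 1.01 ± 0.26, or 2.02-fold (limma, adjusted p = 0.0927). A second Agpat2 probe differed by 0.75 (adjusted p = 0.247).

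Pck1 encodes phosphoenolpyruvate carboxykinase, which makes the glycerol backbone from small precursors when glucose is short. Pck1 was at 2.63, 2.99, 4.08 and 4.12 in Fto -/- and at 1.24, -0.43, 3.87 and 2.83 in Fto +/+. It had the widest span of all members, 23.45-fold from its lowest to its highest array, and the third Fto +/+ sample lay above the first and second Fto -/- samples. Its difference of 1.58 ± 0.85 was therefore within the spread of the samples (limma, adjusted p = 0.351), and was 0.81 without Fto +/+ replicate 2. The remaining genes of the pathway were closer between genotypes. Gpam, the mitochondrial acyltransferase of the first step, differed by 0.40 ± 0.24 (adjusted p = 0.401), and by 0.21 without Fto -/- replicate 3. Dgat1, which shares the last step with Dgat2, differed by 0.17 ± 0.16 (adjusted p = 0.594), and Lpin1, the phosphatidate phosphatase, by 0.12 ± 0.22 (adjusted p = 0.794).

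**Figure D3:**
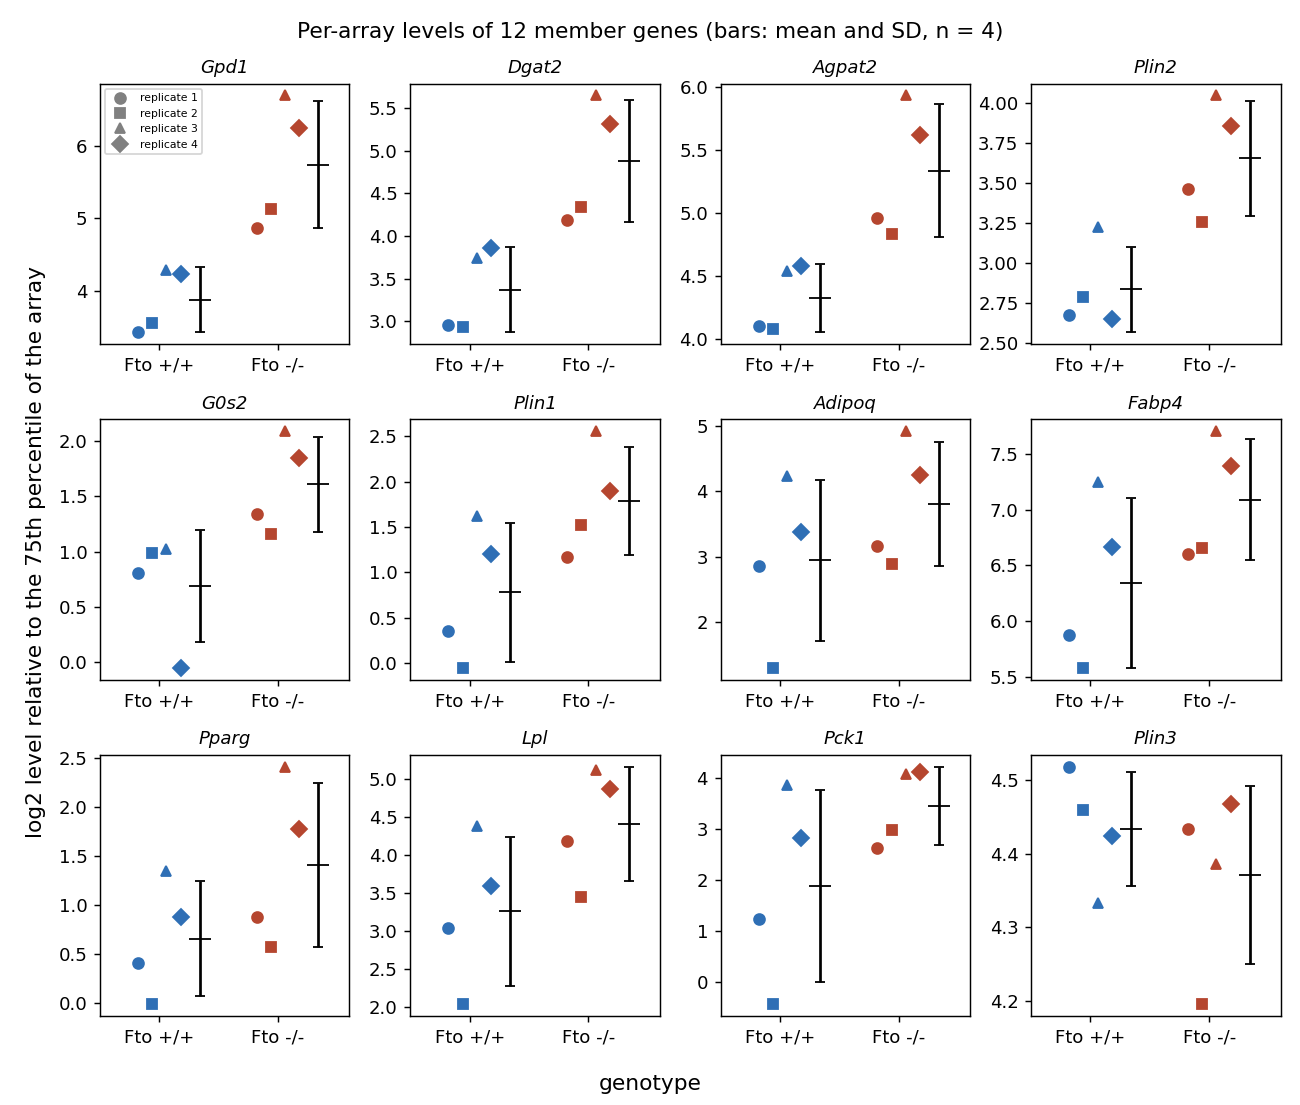
Level of 12 members on each array (log2 relative to the array's 75th percentile), with Fto -/- and Fto +/+ samples side by side, each point 1 array and the horizontal line the genotype mean. Gpd1, Dgat2, Agpat2, Plin2 and G0s2 do not overlap between genotypes, while genes such as Adipoq and Pck1 span several log2 units within Fto +/+.

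The coat and assembly genes of the droplet were mixed: 4 of 7 had the higher mean in Fto -/-, against 47.5% of all tested probes. The median difference of the 7 was 0.07. Plin2, the perilipin found on droplets of many cell types, was at 3.47, 3.26, 4.05 and 3.86 in Fto -/- and at 2.68, 2.79, 3.23 and 2.65 in Fto +/+. The lowest Fto -/- sample was just above the highest Fto +/+ sample. The difference was 0.82 ± 0.20, or 1.77-fold (limma, adjusted p = 0.086). Plin1, the perilipin that guards the droplet of mature adipocytes, was at 1.17, 1.53, 2.56 and 1.90 against 0.35, -0.06, 1.62 and 1.20. The third Fto +/+ sample lay above the first and second Fto -/- samples, so the genotypes overlapped. Plin1 differed by 1.01 ± 0.41, or 2.01-fold (limma, adjusted p = 0.235).

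Plin3, a perilipin of small, newly made droplets, was at 4.43, 4.20, 4.39 and 4.47 in Fto -/- and at 4.52, 4.46, 4.33 and 4.42 in Fto +/+. It had the narrowest span of all members, 1.249-fold over the 8 arrays, and differed by -0.06 ± 0.10 (adjusted p = 0.755). Plin4, a perilipin abundant in adipocytes and muscle, was at 5.86, 6.78, 6.19 and 6.41 against 6.13, 6.60, 6.35 and 6.72. Its genotypes were fully interleaved, with a difference of -0.14 ± 0.21 (adjusted p = 0.75). Fitm2, an endoplasmic reticulum protein needed for droplets to bud, was at -3.27, -3.04, -2.88 and -3.39 against -3.60, -2.80, -2.62 and -2.83. It was well above background on only 3 Fto -/- and 2 Fto +/+ arrays and differed by -0.18 ± 0.22 (adjusted p = 0.683). Plin3, Plin4 and Fitm2 were the members with the lower mean in Fto -/-. Cidec, which fuses droplets into the single large one of white fat, differed by 0.80 ± 0.66 (adjusted p = 0.54; 0.22 without Fto +/+ replicate 2 and 0.52 without Fto -/- replicate 3), and Bscl2, the seipin of droplet assembly, by 0.07 ± 0.16 (adjusted p = 0.847).

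All 6 genes of lipolysis had the higher mean in Fto -/-, against 47.5% of all tested probes, with a median difference of 0.27. G0s2 was the member of this group that did not overlap between genotypes, against 4.75% of all tested probes in that direction. It encodes an inhibitor of adipose triglyceride lipase. G0s2 was at 1.34, 1.16, 2.09 and 1.85 in Fto -/- and at 0.80, 0.98, 1.03 and -0.05 in Fto +/+. The genotypes did not overlap, although the second Fto -/- sample and the third Fto +/+ sample were close, and the fourth Fto +/+ sample was the lowest. The difference was 0.92 ± 0.29, or 1.89-fold (limma, adjusted p = 0.143). Pnpla2, the lipase that G0s2 inhibits, differed by 0.25 ± 0.24 (adjusted p = 0.603), and Abhd5, the activator of that lipase, by 0.18 ± 0.20 (adjusted p = 0.653). Lipe, the hormone-sensitive lipase, differed by 0.61 ± 0.33 (adjusted p = 0.352), and by 0.37 without Fto +/+ replicate 2. Mgll, which frees the last fatty acid, differed by 0.29 ± 0.14 (adjusted p = 0.293), and the other tested Mgll probes differed by 0.33 (adjusted p = 0.198) and 0.16 (adjusted p = 0.552). Pnpla3, a lipid droplet hydrolase and acyltransferase, differed by 0.21 ± 0.27 (adjusted p = 0.705) and, on a second probe, by 0.97 (adjusted p = 0.323).

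The 4 genes of fatty acid uptake and binding had a median difference of 0.78, and each overlapped between genotypes. Fabp5, a fatty acid binding protein also found in macrophages and endothelium, was at 3.14, 3.34, 3.86 and 3.64 in Fto -/- and at 2.90, 3.29, 3.02 and 2.51 in Fto +/+. Only the second Fto +/+ sample reached into the Fto -/- range, and the difference was 0.57 ± 0.20, or 1.48-fold (limma, adjusted p = 0.191). Lpl, the lipase that frees fatty acids from lipoproteins, was at 4.18, 3.45, 5.12 and 4.87 against 3.04, 2.04, 4.38 and 3.59. The third Fto +/+ sample lay above the first and second Fto -/- samples, and the difference was 1.14 ± 0.52, or 2.21-fold (limma, adjusted p = 0.277), and 0.74 without Fto +/+ replicate 2. Fabp4, the main fatty acid binding protein of adipocytes, was at 6.60, 6.65, 7.70 and 7.39 against 5.87, 5.58, 7.25 and 6.67. Both of Fto +/+ replicates 3 and 4 lay above Fto -/- replicates 1 and 2. Fabp4 differed by 0.75 ± 0.40 (adjusted p = 0.345) and by 0.49 without Fto +/+ replicate 2, and Cd36, the fatty acid translocase, by 0.82 ± 0.39 (adjusted p = 0.294).

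The secreted products of fat, which mark mature adipocytes, overlapped between genotypes for all 3 tested genes. Adipoq, which encodes adiponectin, was at 3.16, 2.89, 4.92 and 4.26 in Fto -/- and at 2.87, 1.30, 4.24 and 3.38 in Fto +/+. It spanned 12.31-fold over the 8 arrays, the second Fto +/+ sample was far below the rest, and the third Fto +/+ sample lay above the first and second Fto -/- samples. The difference was 0.86 ± 0.65 (limma, adjusted p = 0.504). It was 0.31 when Fto +/+ replicate 2 was left out, 0.49 when Fto -/- replicate 3 was, and -0.60 when the arrays that showed Rag1 were. Cfd, the complement protease adipsin, differed by 0.33 ± 0.72 (adjusted p = 0.834). Retn, which encodes resistin, differed by 0.03 ± 0.45 (adjusted p = 0.978). In bulk tissue such as this, fewer cells of a type and less RNA per cell cannot be told apart.

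Among the regulators and remaining adipocyte genes, all 5 had the higher mean in Fto -/-, against 47.5% of all tested probes. Pparg, the receptor that drives adipocyte differentiation, was at 0.88, 0.57, 2.41 and 1.78 in Fto -/- and at 0.40, -0.01, 1.35 and 0.88 in Fto +/+. The genotypes overlapped, and the difference was 0.76 ± 0.43, or 1.69-fold (limma, adjusted p = 0.381). Trarg1, a regulator of the traffic of the insulin-responsive glucose transporter, was at -2.87, -2.32, -1.75 and -1.89 against -4.00, -3.57, -2.29 and -2.85. It was well above background on all 4 Fto -/- arrays but on only 2 of the Fto +/+ arrays, replicates 3 and 4, which overlapped the Fto -/- samples. Its difference was 0.97 ± 0.39, or 1.96-fold (limma, adjusted p = 0.227). Cebpa, a transcription factor that acts together with Pparg, differed by 0.39 ± 0.43 (adjusted p = 0.65). Car3, a carbonic anhydrase abundant in fat, differed by 0.67 ± 0.60 (adjusted p = 0.571). Without Fto +/+ replicate 2 the differences were 0.07 for Cebpa and 0.13 for Car3, and without Fto -/- replicate 3 they were 0.18 for Cebpa, 0.33 for Car3 and 0.42 for Pparg. Acvr1c, an activin receptor of adipocytes, differed by 0.07 ± 0.58 (adjusted p = 0.959). Its probes disagreed on the second Fto +/+ sample, which was at -0.25 on the probe used and at -3.77 on another that differed by 0.95 (adjusted p = 0.493).

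Position on the slide moved with genotype, because 3 Fto -/- samples lay in row 1 and 3 Fto +/+ samples in row 2. Within row 1 and within row 2 the differences were 2.14 and 2.23 for Gpd1, 1.78 and 1.80 for Dgat2, 1.14 and 1.22 for Agpat2, 0.91 and 0.97 for Plin2, and 0.73 and 1.19 for G0s2. Each row holds 1 sample of one genotype, and the sign within rows was fixed by choosing genes without overlap, so only the sizes are descriptive. With the row as a block, Gpd1 differed by 2.18 (limma, adjusted p = 0.132).

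No gene of the same pathways outside the 33 members passed the adjusted threshold on the probe that stood for it. Counts of these genes below are at an unadjusted limma p under 0.05. At that level were 19.0% of all tested probes, 8.72% higher and 10.3% lower in Fto -/-. Among other lipid droplet proteins 4 of 10 were at that level, all with the higher mean in Fto -/-. The other 6 had the lower mean, and the median difference of the 10 was -0.06. The 4 included Cidea, a droplet protein of brown fat, at 1.88 ± 0.47 (adjusted p = 0.088). Faf2, a droplet-associated ubiquitin adaptor, was at 0.39 ± 0.10 (adjusted p = 0.086). Cidea is also counted among the brown adipocyte markers below. Among other triglyceride synthesis genes there were 3 of 16, a share of 18.75% beside those 19.0%, all 3 higher, led by Agpat3 at 0.59 ± 0.13 (adjusted p = 0.070) and Acsl5, an acyl-CoA synthetase, at 0.45 ± 0.14 (adjusted p = 0.144). Among genes that control lipolysis there was 1 of 10. That gene was Prkar2b, a regulatory subunit of protein kinase A, with a difference of 1.53 ± 0.59 (adjusted p = 0.210), and Ces1d, a triglyceride hydrolase, followed at 1.18 ± 0.60 (adjusted p = 0.322). Among other genes of fatty acid uptake 5 of 10 had the higher mean in Fto -/- and 5 the lower. At that level were 3 of the 10, all 3 with the lower mean in Fto -/-. They also did not overlap between genotypes, against 7.36% of all tested probes in that direction. They were Lmf1, a maturation factor of lipoprotein lipase, at -0.40 ± 0.09 (adjusted p = 0.074), Vldlr, a lipoprotein receptor, at -0.65 ± 0.21 (adjusted p = 0.147), and Cavin1, a coat protein of caveolae, at -0.19 ± 0.08 (adjusted p = 0.257).

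Of 12 other adipocyte transcription factors 1 was at an unadjusted p under 0.05, against 19.0% of all tested probes. It was Zfp423 at -0.26 ± 0.10 (adjusted p = 0.222). The mean was higher in Fto -/- for 5 of the 12, against 47.5% of all tested probes. Of 13 other white adipocyte genes 3 were at that level, all higher in Fto -/-. That is 23.1%, beside 19.0% of all tested probes in either direction and 8.72% higher. The mean was higher for 12 of the 13, against those 47.5%. The 3 at that level were led by Mest, an imprinted gene of expanding fat, at 1.57 ± 0.45 (adjusted p = 0.118), and Rbp4, which carries retinol, at 0.32 ± 0.11 (adjusted p = 0.172).

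Neighbouring genes of the same family had unequal differences in some pairs. Plin4 and Plin5 are adjacent protein-coding genes on chromosome 17. Plin4 differed by -0.14, whereas Plin5, chosen for this pair after its values were seen and known from oxidative tissue, differed by 1.84 ± 0.66 (adjusted p = 0.190). Dgat2 and Mogat2, a monoacylglycerol acyltransferase, are adjacent on chromosome 7, and Mogat2 differed by 0.09 ± 0.26 against 1.50 for Dgat2. Fabp4 and Fabp5, with 2 protein-coding genes between them on chromosome 3, differed by 0.75 and 0.57. These differences between neighbours were not tested.

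Markers of brown adipocytes also had the higher mean level in Fto -/-. Of 15 markers 14 were tested. The mean was higher in Fto -/- for 11 of them, against 47.5% of all tested probes, and lower for 3. At an unadjusted p under 0.05 were 9, all higher in Fto -/- (against 8.72% of all tested probes in that direction), and 0 passed the adjusted threshold. Their mean level after centring was 0.29, -0.19, 1.34 and 1.02 in Fto -/- and -0.98, -1.22, -0.10 and -0.16 in Fto +/+. Only the second Fto -/- sample reached the Fto +/+ range, and replicates 3 and 4 were the highest of each genotype, as for the members. Ucp1, the uncoupling protein of heat production, differed by 2.90 ± 0.94, or 7.46-fold (limma, adjusted p = 0.153). Fabp3 differed by 1.19 ± 0.30 (adjusted p = 0.092). Their part in the members' differences was not tested.

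Markers of other cells followed other orders over the arrays. T cell and thymocyte markers, 9 of 12 tested, had mean centred levels of 1.29, -1.33, 1.87 and 1.13 in Fto -/- and -1.58, 1.68, -1.80 and -1.27 in Fto +/+. The second Fto +/+ sample, lowest for many members, was high for these markers, and Fto -/- replicates 1, 3 and 4 were high as well. Cd3g, a T cell receptor subunit, differed by 2.54 ± 0.89 (adjusted p = 0.182), Cd3d by 2.58 ± 1.18 (adjusted p = 0.279), Rag1 by 1.79 ± 1.23 (adjusted p = 0.458) and Cd3e by 0.18 ± 0.18 (adjusted p = 0.626). Of 9 markers of smooth muscle, the main cell of the vessel wall, 3 had an unadjusted p under 0.05, against 19.0% of all tested probes. Of the 3, 2 were lower in Fto -/- without overlap, against 7.36% of all tested probes in that direction, and 1 was higher. The median difference of the 9 was -0.19. The 9 markers had mean centred levels between -0.16 and 0.08 in Fto -/- samples and between -0.02 and 0.22 in Fto +/+ samples. Acta2, smooth muscle actin, differed by 0.08 ± 0.11 (adjusted p = 0.692), Myh11, its myosin, by 0.07 ± 0.15 (adjusted p = 0.836), and Lmod1, an actin nucleator, by -0.78 ± 0.17 (adjusted p = 0.068).

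The 8 endothelial markers lay between -0.39 and 0.20 in Fto -/- samples and between -0.17 and 0.37 in Fto +/+ samples. The mean was higher in Fto -/- for 2 of them and lower for 6, against 47.5% of all tested probes higher. Their median difference was -0.27 and the lowest -0.84. At an unadjusted limma p under 0.05 was 1, lower in Fto -/-, against 10.3% of all tested probes in that direction. Pecam1 differed by -0.23 ± 0.17 (adjusted p = 0.485). The 8 macrophage markers ran from -0.34 to 0.72 and from -0.98 to 0.24, and 0 of them were at an unadjusted p under 0.05. Of 11 fibroblast and preadipocyte markers 10 were tested, and they ran from -0.03 to 0.27 and from -0.59 to 0.23. Their leading gene was Lum, the matrix proteoglycan lumican, at 0.93 ± 0.39 (adjusted p = 0.240). Striated muscle markers, 8 of 10 tested, ran from -1.39 to 1.36 and from -0.53 to 1.04, with Acta1, skeletal actin, at -0.53 ± 0.16 (adjusted p = 0.123). The part of these cells in the members' differences was not tested.

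**Figure D4:**
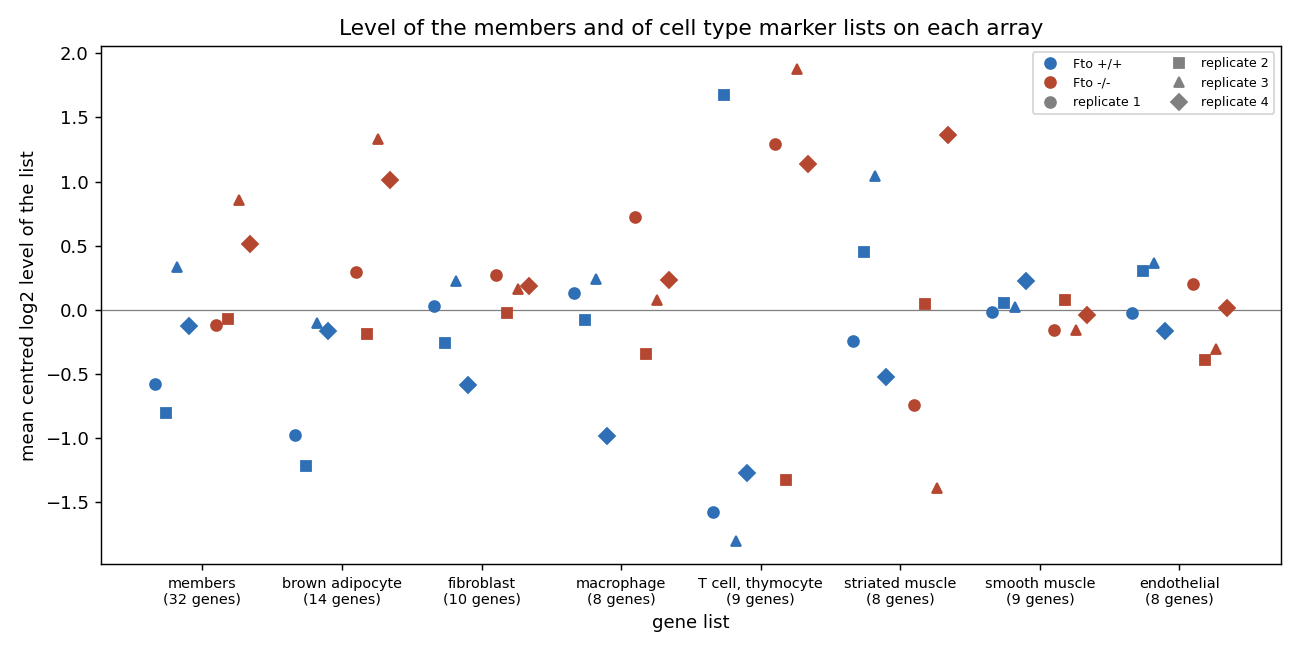
Mean level of the tested members and of each marker list on each array after centring every gene on its mean over the 8 arrays (log2), with Fto -/- and Fto +/+ samples side by side. Fto -/- replicates 3 and 4 are the 2 highest arrays for members and brown adipocyte markers alike, at 1.34 and 1.02 for the latter, while T cell markers are high in Fto -/- replicates 1, 3 and 4 and Fto +/+ replicate 2.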

How the data were processed

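RNA with an integrity number above 8 from each sample was hybridised to a one-colour Agilent mouse 8x60K array, per the labels. The deposited scanner files hold spot intensity, background-subtracted by Agilent Feature Extraction 11.0.1.1 on a design annotated to mm9 with no scaling between arrays, as given per the file headers. The series table holds deposited log2 values that, from the values, are centred on each probe's median. Against the scanner values over 22211 probes their slopes were 0.958 to 1.006 and correlations 0.983 to 0.997, with column medians of -0.0095 to 0.0049, and how they were normalised is not stated in what was used here. Control spots and outlier spots (126 to 189 per array) were left out, spots of a probe averaged, and log2 intensity set relative to each array's 75th percentile. Probes well above background on at least 4 of 8 arrays were tested with limma 3.58.1 (R 4.3.3), genotype alone, all 8 samples, Benjamini-Hochberg adjustment over 25292 probes, threshold 0.05. The procedure was tested on simulated data in which probes varied independently, so that test does not cover genes that move together over the arrays.

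The members, the other gene lists and the tests were chosen with earlier results of these data known. All 33 members are named. Values on every array are given for members with an unadjusted p under 0.05, the 5 largest and 3 lowest differences, and Adipoq, Plin1, Pparg and Fabp4. From other lists up to 2 genes of smallest p are named, besides defining markers, and other genes named were chosen after their values were seen. Replicate numbers recur in both genotypes. Over 25269 tested probes, deviations from the genotype means correlated at 0.155, -0.024, -0.019 and -0.041 for numbers 1 to 4. Samples of the same number were therefore not taken as pairs. The members' mean level, however, was highest in replicates 3 and 4 of both genotypes, and a shared source of that order was not tested. With a replicate block 18 of 32 members had an unadjusted limma p under 0.05, against 8 without it. The share over all probes in that fit is not given here. Alternatives were other backgrounds, scalings and filters, the deposited log2 values, slide row and replicate as blocks, array weights, and leaving out each array. Sequences came from RefSeq tables of build GRCm38.p6.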

Additional observations from a re-analysis of the deposited data

Results flagged for a closer look

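Pnpla3 in Fto -/- replicate 3 lay far from the other samples of its genotype. Its level there was -0.59, while the other three Fto -/- samples lay between -1.66 and -1.59, a gap of 0.934 of the group's range, past Dixon's 95% critical value for 4 samples. It was the only such case among 68 groups of 4 examined, and chance gives about 1 in 20.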

How the results depend on the processing

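Members past the adjusted threshold numbered 0 without any one array, and 3 with a replicate block (Dgat2, Gpd1 and Lpl; 90 probes higher and 42 lower over the array), 3 with the slide row as a random block (Plin2, G0s2 and Gpd1; 1132 higher and 1277 lower, with a consensus correlation of -0.21), 5 with array weights (960 higher and 1093 lower) and 1 with normexp (Gpd1, adjusted p = 0.0391). In the deviations from the genotype means over 25269 tested probes, without a replicate block, only Fto -/- replicate 1 correlated best with its own number in Fto +/+. Over all probes 61 were higher and 35 lower with no filter, 33 and 13 with the row as a block, 0 and 0 within row 1, 1 and 0 within row 2, 0 and 0 without the 4 arrays with Rag1 above background, and from 55 to 499 and from 46 to 387 without one array, the highest counts without Fto +/+ replicate 4. Normexp on the median signals, used because the files hold no mean signal, and the setting without the Rag1 arrays were chosen after seeing the data. The planned normexp on mean signals was not run. Fto differed by -3.19 to -2.99 without one array, by -3.02 (adjusted p = 0.154) and -3.33 (0.32) within rows, and by -2.66 (0.129) without the Rag1 arrays. The count of members with the higher mean in Fto -/- was 24 to 30 and their median 0.34 to 0.86 without one array. The median was 0.31 with normexp. Without the Rag1 arrays these were 16 and -0.0084, and 15 members changed sign: Adipoq to -0.60, Retn -0.44, Cfd -0.98, Plin4 0.38, Cidec -0.39, Bscl2 -0.23, Pnpla2 -0.030, Pnpla3 -0.13, Abhd5 -0.12, Dgat1 -0.036, Lpl -0.22, Pparg -0.31, Cebpa -0.50, Acvr1c -0.62 and Car3 -0.34. Signs also turned within row 2 for Retn (-0.030), Plin3 (0.062) and Pnpla3 (-0.14), within row 1 for Plin4 (0.15) and Fitm2 (0.54), with the row as a block for Plin4 (0.0010), with array weights for Retn (-0.13), and with the random row block for Lpin1 (-0.063) and Acvr1c (-0.58). Without one array, differences ran from -0.33 to 0.39 for Retn, -0.39 to 0.79 for Cfd, -0.30 to 0.011 for Plin4, -0.046 to 0.18 for Bscl2, -0.052 to 0.33 for Pnpla3, -0.013 to 0.28 for Lpin1 and -0.27 to 0.42 for Acvr1c. The causes were not tested. The other 14 members kept their sign under every alternative run, though some only narrowly. Without the Rag1 arrays the differences among them included 0.0066 for Cd36, 0.013 for Gpam, 0.058 for Fabp4 and 0.090 for Mgll. For the 5 members without overlap, leaving out arrays could not change the sign.

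Lep, Fitm2 and Trarg1 are limited by signal near background, and the number of arrays limits the rest. The median SD within a genotype was 0.58 over the members and 0.21 over all tested probes. Leaving out the Rag1 arrays leaves 1 Fto -/- sample, which is assumed to vary like the others.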

Other observations

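Elovl3, a fatty acid elongase of brown fat, was well above background on 3 Fto -/- arrays and on 0 Fto +/+ arrays, and its mean was at least 2.02-fold higher in Fto -/- against the lowest signal measurable there. Myh4, a myosin of fast skeletal muscle, was well above background on 0 Fto -/- arrays and on 2 Fto +/+ arrays, at least 1.91-fold lower in Fto -/-. Of the 14 tested brown adipocyte markers 5 did not overlap between genotypes, all higher in Fto -/-, against 4.75% of all tested probes in that direction. They were Cidea, Fabp3, Otop1, Cpt1b and Cox7a1. Cox7a1, a subunit of cytochrome c oxidase, was at 2.00 ± 0.56 and Cpt1b, the mitochondrial carnitine acyltransferase, at 1.95 ± 0.52. These genes were chosen after their values were seen.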
